A study of Mus musculus with 14 samples.

Results

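The effect of a Western diet (WD) was examined in mouse livers in which the Cul3 gene was intact. Of the 14 liver libraries in the study, the 7 of wild-type (WT) livers were compared, 4 on WD against 3 on the comparison diet that the labels call CD. Samples were taken by their labelled genotype and diet, and all genes of the table were considered. All mice were C57BL/6 with a floxed Cul3 gene. They ate CD or WD for 13 weeks, received an adeno-associated virus (AAV) through the tail vein, and stayed on their diet for 5 more weeks. WT mice received AAV-TBG-Null, which carries no recombinase, so that WT on CD (replicates 1, 3 and 4) and WT on WD (replicates 1 to 4) share the floxed allele and the viral injection. The libraries set beside them came from livers lacking hepatocyte Cul3 (KO; 3 on CD and 4 on WD), in which AAV-TBG-Cre drove Cre recombinase from the hepatocyte promoter TBG. The sources used here do not give sex, age at the start or the composition of the diets, and no label ties a library to a separate animal. Total liver RNA was sequenced as QuantSeq 3′ FWD libraries, a kit that reads a short tag close to the 3′ end of each polyadenylated RNA. Tests here thus speak of the scatter among libraries, part of which may be technical.

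Western diets are commonly rich in fat, sugar and cholesterol. Liver cells take up cholesterol from the diet, and when sterol in the endoplasmic reticulum is plentiful the membrane-bound transcription factor SREBP2 is held back and the genes of cholesterol synthesis are transcribed less. Oxysterols activate LXR, which turns on sterol export pumps and, through SREBP1c, genes of fatty acid synthesis. Triglyceride that is not secreted is stored in lipid droplets, whose surface proteins of the perilipin and CIDE families control their size and their breakdown.

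Of 10870 genes tested, 141 passed at an adjusted p under 0.05 (limma on log2 of FPKM + 1, Benjamini-Hochberg), which is 1.3% of the tested genes. On WD 72 genes were higher (0.662%) and 69 were lower (0.635%), and for all 141 the WD and CD libraries did not overlap. Genes whose groups did not overlap made up 9.22% (higher on WD) and 6.28% (lower on WD) of all tested genes. The clearest groups were enzymes of cholesterol synthesis, which were lower, and lipid droplet proteins, 2 apolipoproteins and the sterol exporter subunit Abcg5, which were higher. Enzymes of methyl group and amino acid metabolism and several drug-metabolising cytochromes P450 were lower. Levels below are FPKM, compared between libraries of a gene and not between genes, and a mean is given ± SD over the 3 CD and 4 WD libraries. Differences are WD minus CD of log2(FPKM + 1), a scale that compresses the changes of low genes.

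The libraries differed by more than diet. By shared ratios among sparse genes they fell into 2 sets whose meaning the sources used here do not give. All 3 WT libraries on CD and WT on WD replicates 3 and 4 belonged to set 1, and WT on WD replicates 1 and 2 to set 2. With the set as a term in the fit 76 genes passed (34 higher, 0.313%, and 42 lower, 0.386%), of which 65 were among the 141. Set 1 alone, with 2 WD libraries, gave 46, of which 35 were among the 141. Each gene below is given with the set as a term where that ended its call. Median centring gave 127 genes and moved the balance to 52 higher and 75 lower. The count fell most without WT on CD replicate 3 (40), replicate 4 (44) or replicate 1 (65) and without WT on WD replicate 1 (57). In all, 34 of the 141 passed whichever WT library was left out and also with the set as a term. FPKM sums ran from 476853 to 523079 in the 7 libraries, and 8600 to 9268 genes reached 1 FPKM. The sources used here give no total reads for a library, so no counting interval is printed.

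Cul3 (ENSMUSG00000004364, mm10 chr1:80264923-80340480, minus strand), the scaffold of cullin 3 ubiquitin ligases, measured 23.9, 29.5 and 25.7 FPKM on CD and 12.3, 7.46, 25.9 and 18.0 on WD. The groups overlapped, since WT on WD replicate 3 lay within the CD range, and the difference of -0.82 did not pass (limma adjusted p = 0.226). In KO livers Cul3 measured 18.3, 15.4 and 11.3 FPKM on CD and 24.3, 26.6, 18.5 and 24.3 on WD. On both diets the levels in KO lay within the range of the WT libraries, so they do not show the deletion. Within CD, every KO library was below every WT library. Gene positions are those of the GENCODE M21 annotation of mm10. Hepatocyte markers were present in every library. Their summed level over 22 genes ran from 16838 to 18261 FPKM on CD and from 14843 to 18366 on WD.

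The sterol synthesis list held the most calls of the lists described, and promoter stretches of 4 of its called genes are shown first. They encode isopentenyl diphosphate isomerase (Idi1), lanosterol demethylase (Cyp51), sterol C4-methyl oxidase (Msmo1) and the sterol C4-decarboxylating dehydrogenase (Nsdhl). Each run is the 250 bases before the start that RefSeq gives for the gene (GRCm38.p6), 5′ to 3′ on the gene's strand. They lie at chr13:8885356-8885605 (plus strand, Idi1), chr5:4104698-4104947 (minus, Cyp51), chr8:64733579-64733828 (minus, Msmo1) and chrX:72918271-72918520 (plus, Nsdhl). Capitals mark the CCAAT box, read on either strand (CCAAT or ATTGG), which is the binding motif of NF-Y, a factor known to act together with SREBPs.
Idi1: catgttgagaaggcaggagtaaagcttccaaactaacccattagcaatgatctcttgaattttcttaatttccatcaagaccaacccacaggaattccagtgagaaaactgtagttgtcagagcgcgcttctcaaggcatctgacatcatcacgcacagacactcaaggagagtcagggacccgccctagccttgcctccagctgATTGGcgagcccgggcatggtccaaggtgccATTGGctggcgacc
Cyp51: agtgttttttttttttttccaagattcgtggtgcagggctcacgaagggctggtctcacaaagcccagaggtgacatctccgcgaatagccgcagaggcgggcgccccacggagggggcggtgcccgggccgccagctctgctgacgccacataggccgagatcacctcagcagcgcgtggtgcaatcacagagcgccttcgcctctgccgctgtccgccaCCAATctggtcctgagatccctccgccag
Msmo1: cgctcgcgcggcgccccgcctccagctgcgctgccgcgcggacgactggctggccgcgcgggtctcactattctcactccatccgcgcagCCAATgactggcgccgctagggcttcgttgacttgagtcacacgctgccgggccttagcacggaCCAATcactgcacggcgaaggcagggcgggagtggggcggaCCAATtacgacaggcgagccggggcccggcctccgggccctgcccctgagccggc
Nsdhl: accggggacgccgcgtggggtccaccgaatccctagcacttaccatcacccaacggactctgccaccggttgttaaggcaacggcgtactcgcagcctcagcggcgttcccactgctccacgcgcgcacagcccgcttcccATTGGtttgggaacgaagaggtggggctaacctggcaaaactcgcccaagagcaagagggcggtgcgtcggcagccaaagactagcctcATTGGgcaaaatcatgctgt
The 4 stretches hold 2, 1, 3 and 2 CCAAT boxes in that order. GENCODE M21, the source of the gene positions given here, starts 3 of the genes further upstream than RefSeq. By its intervals 105 bases of the Idi1 stretch, 49 of the Cyp51 stretch and 214 of the Msmo1 stretch lie within the gene, and so do all the marked boxes of these 3 genes, while the Nsdhl stretch lies wholly outside it. Of the 26 genes listed for sterol synthesis and uptake, 18 had a promoter entry, and 16 of these 18 held the box in at least 1 promoter. Counted by promoter it was 16 of 22, against 33.8% of all 32851 promoters of that length. The sterol regulatory element TCACNCCAC, on either strand, was found in Hmgcs1 alone among the 18 genes and in 1.05% of all promoters. Neither motif contains the other. These matches are descriptions of letters and not of bound sites.

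Transcripts of cholesterol synthesis enzymes fell on WD at several steps of the pathway. Of 24 tested members of the sterol synthesis and uptake list, 6 fell and 0 rose, and 23 of 24 had a negative difference. The median difference was -0.98 on the log2 scale, against 0.04 over all tested genes, and 15 of 24 had WD libraries wholly below the CD libraries. With the library set as a term 4 of the 6 calls remained. Msmo1 (ENSMUSG00000031604, chr8:64718139-64733792, minus strand) measured 109, 101 and 112 FPKM on CD and 14.01, 17.1, 16.7 and 16.3 on WD. All 4 WD libraries were far below the CD libraries and close to each other, a difference of -2.67 ± 0.33 SE (adjusted p = 0.00142). Nsdhl (ENSMUSG00000031349, chrX:72918557-72958514, plus strand), the next enzyme on the same branch, went from 31.3, 31.7 and 28.9 to 5.54, 3.52, 7.14 and 5.59 FPKM. Its difference was -2.33 ± 0.27 SE (adjusted p = 0.00109). Cyp51 (ENSMUSG00000001467, chr5:4081145-4104746, minus strand), which removes the methyl group at carbon 14 of lanosterol, went from 29.4, 34.0 and 36.9 to 4.4, 7.11, 6.48 and 6.30 FPKM (-2.29 ± 0.25 SE, adjusted p = 7.60e-04). Again no WD library came near the CD range. Idi1 (ENSMUSG00000058258, chr13:8885501-8892451, plus strand), which interconverts the isoprenoid building blocks, went from 4.16, 9.95 and 11.4 FPKM to 0.0532, a listed 0, 0.399 and 0.461 (-2.87 ± 0.39 SE, adjusted p = 0.00271). These 4 calls also stood with the set as a term and whichever WT library was left out.

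Fdps and Stard4 were the other 2 calls of the list. Fdps, which makes farnesyl diphosphate, measured 1.79, 3.09 and 2.89 FPKM on CD and 0.356, a listed 0, 0.351 and 0.227 on WD (-1.53, adjusted p = 0.0191). Stard4, a carrier of cholesterol between membranes, went from 28.3 ± 2.16 to 12.6 ± 2.03 FPKM (SD, n = 3 and 4; -1.12, adjusted p = 0.0460). Both calls ended with the set as a term (adjusted p = 0.0586 and 0.0658). That of Fdps also ended without WT on CD replicate 3 or 4 (at most 0.123), and that of Stard4 whichever WT library was left out (at most 0.184, WT on CD replicate 3). Sqle and Ebp are named here after their values were seen, and neither passed. Sqle, squalene epoxidase, was at 1.64, 0.786 and 0.932 FPKM on CD and listed at 0 in all 4 WD libraries. The late enzyme Ebp differed by 0.05 on the log2 scale. Srebf2, which encodes SREBP2, and Dhcr7 were too low to test.

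**Figure D1:**
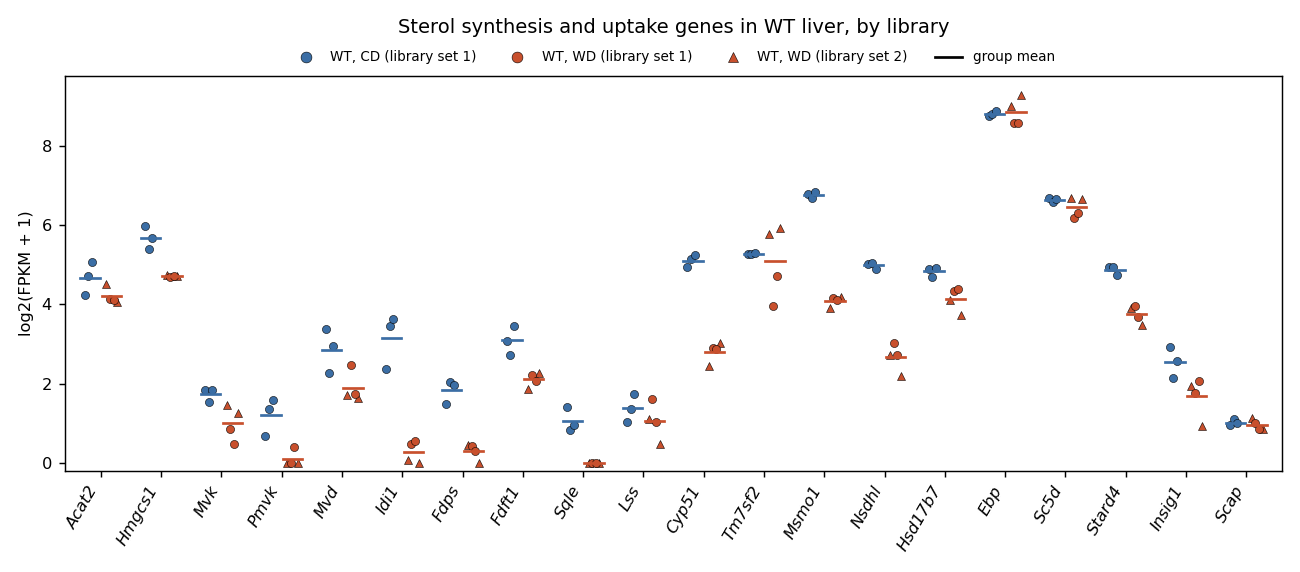
Level of 20 of the 24 tested sterol synthesis and uptake genes in the 7 WT libraries, as log2(FPKM + 1); circles are libraries of set 1, triangles of set 2, and horizontal lines are group means. Msmo1, Nsdhl, Cyp51 and Idi1 sit well below their CD libraries in all 4 WD libraries, while Ebp and Scap overlap.

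Sterol export held 1 call, in the opposite direction. Abcg5 (ENSMUSG00000040505, chr17:84658234-84683011, minus strand), a subunit of the pump that sends cholesterol into bile, measured 19.2, 19.3 and 22.9 FPKM on CD and 52.4, 62.5, 43.8 and 50.6 on WD. Every WD library was above every CD library, and the difference of 1.30 ± 0.18 SE passed (adjusted p = 0.00271, and 0.00848 with the set as a term). It was the 1 call among 16 tested members of the sterol efflux and LXR list, with 0 lower. The list's median was 0.40, and 15 of 16 differences were positive. Its partner subunit Abcg8 went from 5.43 ± 0.816 to 9.30 ± 2.14 FPKM without passing (0.66, adjusted p = 0.124). Nr1h3, which encodes LXR alpha, measured 41.3 ± 7.51 and 63.7 ± 6.92 FPKM (0.62, adjusted p = 0.0836). Npc1, which moves cholesterol out of lysosomes, was the exception in sign, at 48.8 ± 5.62 and 32.0 ± 6.84 FPKM (-0.61, adjusted p = 0.156).

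Lipid droplet proteins were among the largest rises. Of 18 tested members 4 rose and 0 fell, with a median of 0.35, and 2 of the 4 passed with the set as a term. Cidea (ENSMUSG00000024526, chr18:67343604-67367785, plus strand), which promotes fusion of droplets and is best known from adipose tissue, was listed at 0 in all 3 CD libraries and measured 21.7, 5.96, 14.2 and 4.47 FPKM on WD (adjusted p = 7.60e-04). No fold is given against libraries at 0. Cidec (ENSMUSG00000030278, chr6:113424634-113435760, minus strand), a related fusion protein, was at a listed 0, 0.480 and 1.90 FPKM on CD and at 21.1, 10.5, 28.1 and 18.3 on WD. The lowest WD library was thus above the highest CD library, a difference of 3.58 ± 0.55 SE (adjusted p = 0.00555). Both calls stood with the set as a term and whichever WT library was left out. Mgll, the lipase that cleaves monoacylglycerol, went from 48.1 ± 8.77 to 128 ± 37.3 FPKM (1.36, adjusted p = 0.0228). The perilipin Plin4 went from 0.448 ± 0.167 to 1.94 ± 0.545 FPKM (1.01, adjusted p = 0.0476). Both of the latter calls ended with the set as a term (adjusted p = 0.0678 and 0.157). They also ended without WT on CD replicate 3 or 4 or WT on WD replicate 1, and that of Plin4 also without WT on CD replicate 1 or WT on WD replicate 2 or 3 (at most 0.125 and 0.172). Plin2, the main perilipin of fatty liver, named after its values were seen, measured 76.0, 33.8 and 47.9 FPKM on CD and 133, 98.0, 116 and 97.4 on WD. Its groups did not overlap, yet it did not pass (1.13, adjusted p = 0.0854). Since Cidea, Cidec and Plin4 are also expressed by fat cells, adipocyte markers were examined. Adipoq, Lep, Retn and Plin1 were listed at 0 in all 7 WT libraries, and the summed level of the 10 adipocyte genes ran from 2043 to 3483 FPKM on CD and from 1270 to 3233 on WD. With these 4 at 0 the sum rests on the other genes of the list, and whether it follows fat cells was not tested. Of the 5 tested, 1 rose, the complement protease adipsin (Cfd), listed at 0 in all 3 CD libraries and at 1.74, 1.43, 2.50 and 0.278 FPKM on WD (adjusted p = 0.0464, and 0.147 with the set as a term). Its call also ended without any 1 of the CD libraries (at most 0.178, WT on CD replicate 3). A listed 0 in this table can be a failed estimate.

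Among 17 tested genes of the fatty acid synthesis list, which also holds the regulator Insig2, 3 rose and 0 fell, with a median of 0.40. Acaca, Acacb, Fads2, Pnpla3 and Scd2 of that list were too low to test. Scd1 (ENSMUSG00000037071, chr19:44394455-44407879, minus strand), the desaturase that makes oleate, measured 622, 369 and 547 FPKM on CD and 3009, 1625, 3902 and 2278 on WD. The lowest WD library was above the highest CD library (2.36 ± 0.46 SE, adjusted p = 0.0266). Elovl5, which lengthens polyunsaturated fatty acids, went from 3.05 ± 0.519 to 9.77 ± 3.01 FPKM (1.37, adjusted p = 0.0191). Insig2, which retains SREBPs in the endoplasmic reticulum, went from 56.9 ± 15.4 to 142 ± 57.3 FPKM (1.25, adjusted p = 0.0478). The call of Scd1 ended with the set as a term (adjusted p = 0.0685), as did that of Insig2 (0.151), whereas Elovl5 passed (0.0183). All 3 calls ended without any of the WT libraries on CD and without WT on WD replicate 1 (at most 0.145 for Scd1, 0.0860 for Elovl5 and 0.206 for Insig2). That of Scd1 also ended without WT on WD replicate 3, and that of Insig2 without WT on WD replicate 2. In fatty acid oxidation 1 of 30 tested members rose and 0 fell, with a median of 0.21. Acaa1b, a peroxisomal thiolase and target of the fatty acid sensor PPAR alpha, went from 720.0 ± 203 to 1803 ± 428 FPKM (1.33, adjusted p = 0.0416, and 0.136 with the set as a term). This call ended without each WT library except WT on WD replicate 3 (at most 0.172). Ppara itself measured 145 ± 13.1 and 245 ± 33.7 FPKM and did not pass (0.75, adjusted p = 0.0561).

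Neither fatty acid uptake nor triglyceride assembly held a call. Among 17 tested uptake and binding genes 0 passed, with a median of 0.18, and the nearest was the fatty acid translocase Cd36. It measured 5.93, 10.3 and 14.05 FPKM on CD and 21.1, 16.4, 24.3 and 31.0 on WD, without overlap (1.16, adjusted p = 0.111). Of 14 genes of triglyceride synthesis and VLDL assembly 0 passed, with a median of 0.26. The acyltransferase Agpat2 had the smallest p of them, at 92.0 ± 20.97 and 166 ± 33.3 FPKM (0.85, adjusted p = 0.0978). Over all genes tested 1723 had an unadjusted p under 0.05.

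Apolipoproteins held both Apoa4, the second of the largest rises, and Apom, the first of the largest falls among called genes that are not unnamed gene models. Of 15 tested, 2 rose and 1 fell, and the 3 calls stood with the set as a term and whichever WT library was left out. Apoa4 (ENSMUSG00000032080, chr9:46240696-46243459, plus strand), a protein of chylomicrons and VLDL, measured 0.480, 0.675 and 1.64 FPKM on CD and 28.3, 39.3, 29.9 and 20.8 on WD. The groups were widely apart, at 3.998 ± 0.27 SE (adjusted p = 1.13e-05). Apoc2 (ENSMUSG00000002992, chr7:19671579-19677941, minus strand), the cofactor of lipoprotein lipase, went from 723, 567 and 628 to 2356, 1936, 1533 and 1573 FPKM (1.52 ± 0.19 SE, adjusted p = 0.00198). Apom (ENSMUSG00000024391, chr17:35128997-35132050, minus strand), the HDL protein that carries sphingosine 1-phosphate, measured 201, 179.7 and 180.5 FPKM on CD. On WD it measured 18.5, 24.3, 26.9 and 11.1 FPKM (-3.21 ± 0.24 SE, adjusted p = 2.40e-05). Apoe, the ligand for uptake of remnant particles, measured 24249 ± 1192 and 34546 ± 3851 FPKM without passing (0.51, adjusted p = 0.173).

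**Figure D2:**
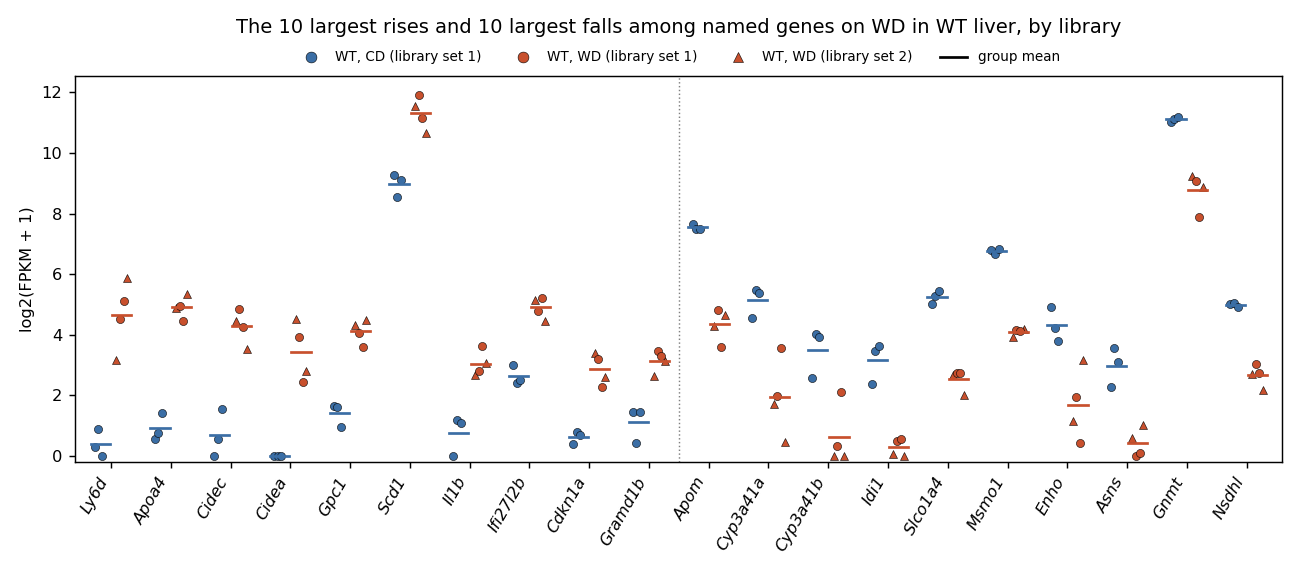
The 10 largest rises and 10 largest falls on WD among called genes with at least 5 FPKM in the higher group and no overlap of the groups, unnamed gene models left out, as log2(FPKM + 1) in each of the 7 WT libraries (circles, set 1; triangles, set 2; lines, group means). The genes were picked for these differences, so the plot shows the spread of the libraries within each diet; the WD libraries of Cyp3a41a, Cyp3a41b and Enho spread more widely than those of Msmo1.

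Bile acid synthesis held no call (0 of 19, median -0.28). Cyp7a1, the rate-limiting enzyme of the main pathway, measured 92.7, 43.4 and 56.7 FPKM on CD and 22.98, 10.4, 38.4 and 29.6 on WD. Its groups did not overlap, but the difference of -1.38 did not pass (adjusted p = 0.185). Cyp7b1, of the alternative pathway, measured 158 ± 27.4 and 77.9 ± 30.1 FPKM (-1.07, adjusted p = 0.129). Of 12 tested bile acid transport genes 2 fell and 0 rose, with a median of 0.00. Slco1a4 (ENSMUSG00000030237, chr6:141805440-141856199, minus strand), an uptake transporter of organic anions and bile acids, measured 31.2, 37.5 and 42.9 FPKM on CD and 5.29, 3.02, 5.71 and 5.67 on WD. All 4 WD libraries were far below CD, with replicate 2 lower than the other 3 (-2.71 ± 0.27 SE, adjusted p = 4.17e-04). Slc10a1, the main sodium-dependent bile acid importer, went from 214 ± 13.7 to 115 ± 31.9 FPKM (-0.94, adjusted p = 0.0464). That call ended with the set as a term (0.141), without any WT library on CD (at most 0.190) and without WT on WD replicate 1 or 4. The phospholipid exporter Abcb4 measured 11.7 ± 1.30 and 21.3 ± 3.07 FPKM without passing (0.81, adjusted p = 0.0652).

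Amino acid metabolism was lower in several steps. Of 33 tested genes of amino acid catabolism and the urea cycle 4 fell and 0 rose, with a median of -0.46. Gnmt (ENSMUSG00000002769, chr17:46725664-46729168, minus strand), which uses up methyl groups by methylating glycine, measured 2064, 2243 and 2331 FPKM on CD and 609.7, 466, 536 and 236 on WD. All WD libraries were below all CD libraries (-2.34 ± 0.30 SE, adjusted p = 0.00198). Cps1 (ENSMUSG00000025991, chr1:67123026-67231259, plus strand), the first enzyme of the urea cycle, went from 74.3, 84.1 and 86.6 to 27.9, 25.5, 45.2 and 35.0 FPKM (-1.30 ± 0.20 SE, adjusted p = 0.00555). It was also the 1 call among 22 hepatocyte markers. Both calls stood with the set as a term and whichever WT library was left out. Asns, asparagine synthetase, went from 3.88, 10.8 and 7.51 FPKM to 0.513, 1.03, a listed 0 and 0.0645 (-2.55 ± 0.45 SE, adjusted p = 0.0145). Got1, the cytosolic aspartate aminotransferase, went from 188 ± 10.5 to 63.5 ± 28.0 FPKM (-1.65, adjusted p = 0.0191, and 0.0578 with the set as a term). Asns lost its call without WT on CD replicate 3 or 4 (at most 0.104), and Got1 without any WT library on CD or without WT on WD replicate 1 (at most 0.0852).

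Of 21 tested xenobiotic P450 genes 3 fell and 0 rose, with a median of -0.20, and 8 of the 21 differences were positive. These cytochromes of drug and steroid metabolism belong to families with near-identical members whose reads may be shared, so that the assignment to single genes is uncertain. Cyp2d40, a P450 on none of the lists and named after its values were seen, rose from 5.33, 5.18 and 6.41 to 14.3, 24.005, 14.4 and 13.4 FPKM (1.37, adjusted p = 0.0251). Its call ended without any 1 of the CD libraries (at most 0.127, WT on CD replicate 3) and without WT on WD replicate 1. Cyp2c29 went from 390, 438 and 425 to 124, 74.5, 138 and 125 FPKM (-1.88 ± 0.29 SE, adjusted p = 0.00555). Cyp1a2, which clears caffeine and many aromatic amines, went from 1128 ± 101 to 407 ± 157 FPKM (-1.55, adjusted p = 0.0115). Cyp2a5, a coumarin hydroxylase, went from 706 ± 197 to 212 ± 105 FPKM (-1.82, adjusted p = 0.0253, and 0.0729 with the set as a term). Its call ended without WT on CD replicate 3 or 4 or WT on WD replicate 1 or 3 (at most 0.144), and that of Cyp1a2 without WT on CD replicate 1 or 4 (at most 0.0676). Cyp3a11, the main drug-metabolising member of its family, had the widest spread. It measured 3256, 3812 and 5129 FPKM on CD and 221, 28.6, 390.1 and 1555 on WD. The groups did not overlap, but the difference of -3.99 ± 0.92 SE missed the threshold (adjusted p = 0.0543). It passed without WT on WD replicate 4 (the highest of the 4) or replicate 2 (the lowest), and with median centring (adjusted p = 0.0472).

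Sex-biased liver genes were set beside these because both lists hold P450s and the labels give no sex. Of 16 tested female-biased genes 3 fell and 0 rose, with a median of -0.63. Another 11 of the 27 listed were too low to test, and of these A1bg, Sult2a1, Sult2a2 and Hao2 were listed at 0 in all 7 WT libraries. All 3 calls belong to the Cyp3a family, within which reads may be shared, also with Cyp3a11. Among the WD libraries Cyp3a41a was lowest in replicate 2 and highest in replicate 4, as Cyp3a11 was. The part of shared reads in these calls was not tested. Cyp3a41a went from 22.4, 43.8 and 40.7 to 2.30, 0.377, 2.93 and 10.8 FPKM (-3.21 ± 0.58 SE, adjusted p = 0.0181), and Cyp3a41b from 4.90, 15.4 and 14.02 FPKM to a listed 0, a listed 0, 0.260 and 3.26 (-2.89 ± 0.50 SE, adjusted p = 0.0125). Cyp3a44 went from 1.11, 1.797 and 2.09 FPKM to 0.105, a listed 0, 0.274 and 0.264 (-1.19, adjusted p = 0.0350). The calls of Cyp3a41a and Cyp3a44 ended with the set as a term (adjusted p = 0.0506 and 0.0906). Without WT on CD replicate 3 or 4 all 3 calls ended (at most 0.107, 0.0913 and 0.168). That of Cyp3a41a ended as well without WT on WD replicate 1, and that of Cyp3a44 whichever WT library was left out. Of 25 tested male-biased genes 1 fell and 0 rose, with a median of -0.24. It was Susd4, a regulator of complement, at 12.8 ± 3.41 and 6.05 ± 1.23 FPKM (-0.96, adjusted p = 0.0416), whose call ended whichever WT library was left out (at most 0.164).

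NRF2 targets, the genes that respond when KEAP1 and cullin 3 no longer degrade NRF2, include many glutathione S-transferases. Of 36 tested targets 2 fell and 0 rose, with a median of -0.30. Gstp1 (ENSMUSG00000060803, chr19:4035407-4037985, minus strand) measured 60.2, 71.4 and 52.9 FPKM on CD and 9.39, 13.1, 19.7 and 18.3 on WD. Its highest WD library was below its lowest CD library (-1.99 ± 0.31 SE, adjusted p = 0.00555). Reads may be shared with the near-identical Gstp2, named after its values were seen, which also fell, from 17.1, 14.5 and 12.4 to 4.92, 9.23, 5.69 and 4.25 FPKM (-1.20, adjusted p = 0.0271). The call of Gstp2 held without WT on WD replicate 2 and ended without any other 1 of the WT libraries (at most 0.125, WT on CD replicate 3). The other call was Cyp2a5. Gsta2 measured 48.4, 161 and 124 FPKM on CD and 19.7, 2.40, 20.5 and 44.6 on WD, and did not pass (-2.62, adjusted p = 0.0808). Gsta3 measured 848 ± 73.2 and 389 ± 146 FPKM (-1.23, adjusted p = 0.0850). Gsta2 passed without WT on WD replicate 4, and Gsta3 without WT on WD replicate 2.

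Secreted regulators of metabolism changed in both directions. Of 24 tested hepatokines 1 rose and 2 fell, with a median of -0.16. Inhbe (ENSMUSG00000047492, chr10:127348857-127354411, minus strand), which encodes the subunit of activin E, went from 4.24, 4.90 and 5.57 to 23.97, 23.4, 16.7 and 21.9 FPKM. Its 4 WD libraries were all above the CD libraries (1.92 ± 0.26 SE, adjusted p = 0.00287). Igfbp2, a binding protein of insulin-like growth factors, went from 6.11, 3.90 and 5.67 to 0.974, 0.185, 0.703 and 0.930 FPKM (-1.88, adjusted p = 0.0124). Enho, which encodes adropin, went from 28.9, 17.7 and 12.9 to 1.21, 7.99, 2.85 and 0.331 FPKM (-2.64, adjusted p = 0.0268). The call of Inhbe stood whichever WT library was left out. That of Igfbp2 ended without WT on CD replicate 1 or 4 (at most 0.0718), and that of Enho without any WT library on CD or without WT on WD replicate 1 (at most 0.123).

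Ly6d and Cdkn1a rose outside the lipid lists. Ly6d (ENSMUSG00000034634, chr15:74762056-74763620, minus strand), a lipid-anchored surface protein, measured 0.236, 0.832 and a listed 0 FPKM on CD and 7.90, 57.1, 21.8 and 33.5 on WD (4.27 ± 0.49 SE, adjusted p = 9.39e-04). It had the highest difference of the named rises, and its WD libraries spread from 7.90 to 57.1. Ly6d is also on the list of cholangiocyte and progenitor markers, whose summed level over 18 genes, Ly6d included, ran from 12.7 to 25.5 FPKM on CD. On WD the sum was 22.1, 89.8, 34.9 and 44.8 FPKM. Ly6d itself was the larger part of it in replicates 2, 3 and 4, so the sum shows no rise of the list apart from Ly6d. Of that list Cftr, Muc1, Cldn4 and Prom1 were listed at 0 in all 7 WT libraries, and Ly6d was the 1 call among 9 tested. Cdkn1a (ENSMUSG00000023067, chr17:29090976-29100727, plus strand), which encodes the cell cycle inhibitor p21, measured 0.323, 0.707 and 0.629 FPKM on CD and 9.59, 5.13, 8.14 and 3.82 on WD (2.24 ± 0.35 SE, adjusted p = 0.00627). It was the 1 call among 30 tested cell cycle genes, whose median was 0.16. The cyclins Ccnd1 and Ccnd2 measured 8.85 ± 3.09 and 20.2 ± 8.04 FPKM, and 2.68 ± 0.598 and 6.62 ± 2.10 FPKM, without passing (adjusted p = 0.201 and 0.159).

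The immune and matrix lists held few calls. This does not count called genes outside the lists, such as Ptpn6, a phosphatase of blood cells that rose on WD and is given below. Not tested, nearly all for being too low, were 5 interferon response genes and 10 chemokine, cytokine and adhesion genes. The same holds for 9 lipid-associated macrophage genes and 16 matrix and stellate cell genes. Of 29 tested interferon response genes 2 rose and 0 fell, 25 of 29 differences were positive, and the median was 0.30. Ifi27l2a went from 12.1, 8.61 and 17.3 to 51.3, 43.3, 27.6 and 35.4 FPKM (1.58 ± 0.30 SE), and Irf7, which amplifies the interferon response, from 3.86, 2.86 and 4.87 to 9.35, 13.3, 7.73 and 9.33 FPKM (1.17 ± 0.22 SE). Each had an adjusted p of 0.0242 and ended at 0.0686 with the set as a term, and without WT on CD replicate 1 or 3 or WT on WD replicate 1 (at most 0.144). The paralog Ifi27l2b, outside the list, went from 7.01, 4.28 and 4.61 to 34.7, 20.9, 26.7 and 36.1 FPKM (2.27 ± 0.23 SE, adjusted p = 4.61e-04). Reads of these 2 neighbours on chromosome 12 may be shared. Il1b, the inflammatory cytokine interleukin 1 beta, measured a listed 0, 1.26 and 1.14 FPKM on CD and 5.29, 7.40, 6.00 and 11.5 on WD (2.28 ± 0.46 SE, adjusted p = 0.0286). It was the 1 call among 20 chemokine, cytokine and adhesion genes (median 0.25), and it ended with the set as a term (0.0906) and without each WT library except WT on WD replicate 3 (at most 0.133). Fcer1g, a signalling chain of Fc receptors, went from 16.0 ± 7.72 to 69.0 ± 38.4 FPKM (1.999, adjusted p = 0.0404). It was the 1 call among 15 genes of lipid-associated macrophages (median 0.46) and ended whichever WT library was left out (at most 0.176), as with the set as a term (0.0506). Trem2 and Gpnmb, which define those macrophages, stayed under 1 FPKM in all 7 WT libraries.

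Among macrophage and Kupffer cell markers 0 of 17 passed, with 15 positive and a median of 0.53. The summed level of 18 such markers ran from 78.4 to 120.1 FPKM on CD and from 130.4 to 234 on WD, without overlap. The sums of lipid-associated macrophage, matrix and stellate cell, and sinusoidal endothelial markers overlapped between the diets. Lipid-associated macrophage markers summed to 443 to 505 FPKM on CD and 409 to 676 on WD. A large part of that sum on CD was Ctsl, which went against most of its list. It measured 199, 215 and 210 FPKM on CD and 74.1, 37.9, 157 and 111 on WD, without passing (-1.30, limma adjusted p = 0.153). Of the 15 tested members 11 differences were positive and 4 negative, so the sum does not follow the list as a whole. Matrix and stellate cell markers summed to 455 to 633 and 558 to 743, and sinusoidal endothelial markers to 123 to 179 and 119 to 179. The summed level of 26 lymphocyte and neutrophil markers ran from 8.996 to 20.8 FPKM on CD. On WD it was 25.0, 27.9, 188 and 34.2, also without overlap, and replicate 3 was far above the other WD libraries. Of these markers Cd3d, Trac, Trbc2, Nkg7, Ly6g and Mpo were listed at 0 in the 7 WT libraries. In whole liver, more cells of a type and more RNA per cell cannot be told apart. The part of these cells in the rises of Il1b, Fcer1g, Irf7 and Ifi27l2a was not tested. Of 22 tested matrix and stellate cell genes 0 passed, with 20 positive and a median of 0.42. Col4a1, a basement membrane collagen, measured 4.47, 2.30 and 3.23 FPKM on CD and 7.61, 7.23, 6.32 and 6.00 on WD (0.87, adjusted p = 0.0887). Acta2, the actin of activated stellate cells, measured 0.467, 1.28 and 1.20 FPKM on CD and 1.29, 4.11, 5.04 and 4.80 on WD (1.21, adjusted p = 0.156). Timp1 was listed at 0 in all 7 WT libraries.

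**Figure D3:**
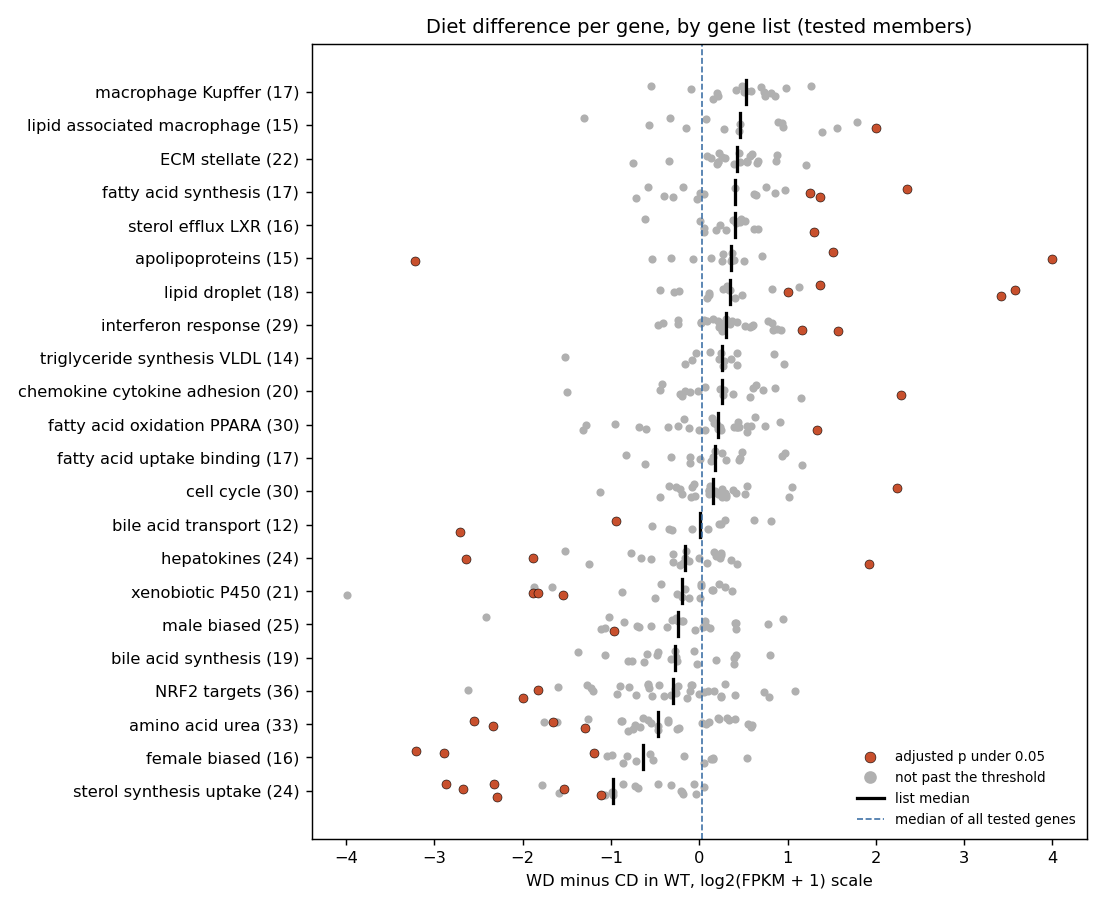
Difference of each tested gene between WD and CD in WT liver (x axis, log2(FPKM + 1) scale), by gene list, with the number of tested members in brackets; red points passed at an adjusted p under 0.05, grey points did not, black bars are list medians and the dashed line is the median of all tested genes (0.04). The sterol synthesis list has the lowest median (-0.98), and the called points of the lipid droplet list reach 3.58.

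Gpc1 and Gramd1b were also among the largest rises and are on none of the lists. Gpc1 (ENSMUSG00000034220, chr1:92831645-92860779, plus strand), a glypican that carries heparan sulfate at the cell surface, went from 2.12, 2.03 and 0.940 to 19.2, 21.6, 15.5 and 11.1 FPKM. All WD libraries were above 10 FPKM and all CD libraries below 3 (2.72 ± 0.31 SE, adjusted p = 9.39e-04). Gramd1b, which carries cholesterol from the plasma membrane to the endoplasmic reticulum, went from 1.73, 0.348 and 1.72 to 5.24, 7.73, 9.98 and 8.77 FPKM (2.02, adjusted p = 0.0397). The call of Gpc1 stood with the set as a term and whichever WT library was left out. That of Gramd1b ended with the set as a term (0.115) and whichever WT library was left out (at most 0.191).

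The diet was then compared with its effect in KO livers, whose group means share no library with those of the WT comparison. Both comparisons use the same spread for each gene, which the fit estimated from all 14 libraries. The calls in WT and in KO are thus not from separate tests. In KO 693 genes passed, 416 higher (3.83%) and 277 lower (2.55%) on WD, and 38 with the set as a term. All KO libraries on CD belong to set 2. Of the 141 genes called in WT 34 were also called in KO, which is 24.1% of the WT calls and 4.91% of the KO calls, and 31 of these had the same direction. Apom fell in both genotypes, by 3.21 in WT and by 3.15 in KO on the log2 scale. In KO it went from 298, 308 and 234 to 29.5, 27.1, 36.4 and 29.6 FPKM. Slco1a4 (-2.71 and -3.23), Gnmt (-2.34 and -2.73), Msmo1 (-2.67 and -2.02) and Cyp51 (-2.29 and -2.09) also passed in both. Scd1 rose by 2.36 in WT and by 3.11 in KO.

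The difference of the diet effect between genotypes was itself tested, and 37 genes passed (0.34% of 10870). Of the 141 genes called in WT 15 were among them. The count was unsteady when 1 library was left out, from 4 without WT on CD replicate 3 to 1058 without WT on WD replicate 4. Idi1, which fell in WT, measured 0.513, 0.0981 and 0.380 FPKM in KO on CD and 2.69, 2.88, 0.256 and 1.72 in KO on WD, so that KO on CD (at most 0.513) lay near WT on WD (at most 0.461). The difference between the effects was -3.88 (adjusted p = 0.0123). Abcg5 measured 61.8, 63.3 and 76.9 FPKM in KO on CD and 50.4, 52.1, 69.3 and 67.8 in KO on WD. No KO library was under 50.4 FPKM, against at most 22.9 in WT on CD, and the effects differed by 1.48 (adjusted p = 0.0241). Cidea stayed at 0.124 FPKM or below in all 7 KO libraries (adjusted p = 0.0241). Apoa4 rose in KO as well, from 4.43, 4.94 and 4.35 to 10.4, 20.6, 18.3 and 13.5 FPKM, but by less than in WT (2.46 less on the log2 scale, adjusted p = 0.0241). Gpc1 measured 6.40, 7.61 and 8.67 FPKM in KO on CD and 7.40, 6.01, 16.9 and 9.37 in KO on WD (effects differing by 2.45, adjusted p = 0.0360). With the set as a term 2 genes passed, and none of these 5 was among them (adjusted p = 0.388 for Idi1, 0.746 for Gpc1 and 0.527 for the other 3). The estimates with that term were smaller but of the same sign for Idi1 (-2.77), Cidea (3.08), Apoa4 (1.99) and Gpc1 (1.45). Set, diet and genotype are unevenly crossed here, as WT on CD lies wholly in set 1 and KO on CD wholly in set 2, so the set's part in these differences cannot be told apart from genotype on CD.

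**Figure D4:**
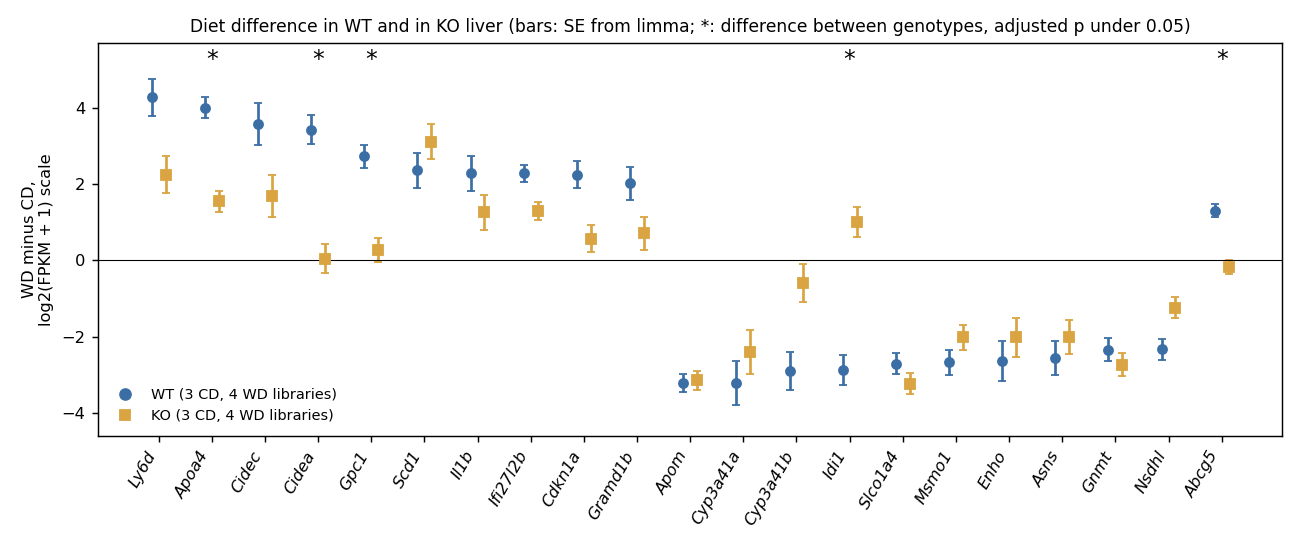
Diet effect (WD minus CD, log2(FPKM + 1) scale) in WT (circles) and KO (squares) for the 20 largest named changes and Abcg5, with bars of 1 SE from limma; asterisks mark an adjusted p under 0.05 for the difference between genotypes without the set as a term. Apom, Slco1a4 and Gnmt differ by 0.52 or less between genotypes, while Idi1 and Cidea lie 3.88 and 3.38 apart.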

How the data were processed

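The authors deposited 1 table of FPKM values, a fragment count divided by the length of the transcript and the size of the library, for 43548 genes in 14 libraries. Cufflinks and mm10 are named without versions in the submitters' processing notes. The sources used here do not give the aligner or the annotation. Per the labels' protocols the libraries read 3′ tags, so dividing by transcript length distorts levels between genes. Yam1, which held a placeholder in place of a value, was left out. In this table an exact 0 can be a failed estimate, and such values are called listed at 0.

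From these, log2(FPKM + 1) was fitted with limma 3.58.1 in R 4.3.3 (intensity trend, 1 mean for each of 4 groups, all 14 libraries, 10 residual degrees of freedom), for genes that reached 1 FPKM in 3 or more libraries. A gene was called when its Benjamini-Hochberg adjusted p, over all tested genes, was under 0.05, and every adjusted p is from limma. The steps were tested on simulated data. Library sets were found by clustering shared ratios of sparse genes (detected in no more than 8 libraries), with a median sharing of 7.08% within set 1, 4.78% within set 2 and 2.63% between sets. The alternatives were another pseudocount, other filters, quantile and median scaling, no trend, the set as a term, set 1 alone, the 7 WT libraries alone, the replicate number as a block and leaving out each library.

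The comparison and the 40 gene lists, of which 22 are described, were chosen with earlier results of these data known. Of 861 list genes 850 were matched by symbol and 7 through the annotation. Genes named are Cul3, from the called genes the 10 that rose most and the 10 that fell most (higher group mean of 5 FPKM or more, no overlap, no unnamed gene models), and for each described list at most 4 members, by smallest p. Fdps, Stard4 and others said to be so were named after their values were seen. Promoters are from RefSeq. Values of 4 tested sterol genes are not reported here.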

Additional observations from a re-analysis of the deposited data

Results flagged for a closer look

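The diet effect differed between WT and KO livers for 5 of the named genes, by the test of the difference itself (limma, adjusted over all tested genes). On the log2(FPKM + 1) scale the effect in WT minus that in KO was 2.46 for Apoa4 (adjusted p = 0.0241), 3.38 for Cidea (0.0241), 2.45 for Gpc1 (0.0360), -3.88 for Idi1 (0.0123) and 1.48 for Abcg5 (0.0241). Cidea was listed at 0 in every CD library of both genotypes, so its value depends on the pseudocount. With the library set as a term no difference of these 5 genes passed (adjusted p = 0.388 to 0.746). The estimates for Apoa4, Cidea, Gpc1 and Idi1 were then 1.99, 3.08, 1.45 and -2.77.

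In 6 of the 91 named genes, 1 of the 4 WT libraries on WD stood far from the other 3 (gap over range above Dixon's 95% critical value). Chance alone gives about 1 such flag in 20 groups. Replicate 1 was high for Apoe (40301 FPKM, next 33091), Ccl9, a chemokine (18.5, next 5.30), and Folr2, a folate receptor of resident macrophages (13.7, next 6.82). Replicate 2 was low for Slco1a4 (3.02, next 5.29) and Gsta3 (170.0, next 442). Replicate 4 was high for Cyp3a41b (3.26, next 0.260). Without WT on WD replicate 1 Ccl9 passed as lower on WD, and likewise with the set as a term (adjusted p = 0.0394) and in set 1 alone (0.0248).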

How the results depend on the processing

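Of the 42 called genes among the 91 named by rule, 17 passed under each alternative run that could fit them. Of the 707 values of these 42 genes under alternatives 521 stayed past the threshold, 186 did not and 0 changed sign. Other called genes given in the text are outside these counts. The number of genes called for WD in WT (141) was 149 with a pseudocount of 0.1 FPKM, 97 with no filter, 124 with a filter of 5 FPKM or no trend, 139 with quantile normalization and 127 with median centring. It dropped to 76 with the library set as a term and to 46 in set 1 alone or with the 7 WT libraries alone, where fewer libraries estimate the spread. Leaving out 1 WT library gave 40 (WT on CD replicate 3) to 120 (WT on WD replicate 4), and 44 without WT on CD replicate 4, 65 without WT on CD replicate 1 and 57 without WT on WD replicate 1. The median of all tested genes was 0.04 in the main comparison, 0.04 with quantile normalization and 0.03 with median centring. Insig2, Susd4, Acaa1b and Plin4 missed the threshold with median centring.

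The number of genes whose diet effect differed between WT and KO (37) was less steady. It was 24 with a pseudocount of 0.1 FPKM, 21 with no filter, 184 with a filter of 5 FPKM and 2 with the set as a term. Leaving out 1 library gave 4 (WT on CD replicate 3) to 1058 (WT on WD replicate 4). It gave 666 without WT on WD replicate 3, 759 without KO on WD replicate 3, 7 without WT on CD replicate 1 or WT on WD replicate 1, 8 without WT on CD replicate 4, 9, 12 and 24 without KO on CD replicates 2, 3 and 1, and 14 and 15 without KO on WD replicates 2 and 4. The cause was not tested.

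The labels number replicates in both diets, and the main fit treated the samples as unpaired. Deviations of same-numbered WT libraries from their group means correlated at 0.089, -0.004 and 0.069 for numbers 1, 3 and 4. These values cannot decide whether the numbers pair samples, since WT on WD is split between the library sets and WT on CD is not. With the replicate number as a block 60 genes passed for WD in WT and 4 for the difference.

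The sources used here give no total reads, so a level near 0 carries no counting error and absence cannot be stated.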

Other observations

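Of the 141 called genes 98 (53 higher, 45 lower) were on none of the lists. The genes named here were chosen from them after their values were seen. Smpd3, a neutral sphingomyelinase, went from 0.784, 0.488 and 0.450 to 3.02, 7.91, 2.94 and 2.81 FPKM (limma, 1.62 on the log2 scale, adjusted p = 0.0157), and Ormdl3, which restrains sphingolipid synthesis, from 19.4, 22.1 and 26.8 to 44.2, 35.3, 40.7 and 45.1 FPKM (0.84, adjusted p = 0.0436). Sgms2, a sphingomyelin synthase, went from 15.0, 14.3 and 15.1 to 7.93, 7.62, 9.48 and 9.48 FPKM (-0.72, adjusted p = 0.0460). The calls of Ormdl3 and Sgms2 ended with the library set as a term (adjusted p = 0.115 and 0.128), and that of Smpd3 did not (0.0443). The call of Sgms2 ended whichever WT library was left out, that of Ormdl3 without any 1 but WT on WD replicate 2, and that of Smpd3 without WT on CD replicate 3 or 4. The highest adjusted p, without WT on CD replicate 3, was 0.0901 for Smpd3, 0.179 for Ormdl3 and 0.164 for Sgms2.

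Csad, an enzyme of taurine synthesis from cysteine, went from 69.5, 149 and 155 to 22.3, 41.2, 35.0 and 29.5 FPKM (-1.87, adjusted p = 0.00375). Etnppl, which breaks down phosphoethanolamine, went from 45.4, 57.6 and 69.8 to 19.0, 10.4, 15.2 and 21.5 FPKM (-1.77, adjusted p = 0.00271). Slc13a2, a carrier of citrate and other dicarboxylates, went from 4.59, 5.38 and 3.96 to 0.585, 0.420, 0.544 and 0.157 FPKM (-1.99, adjusted p = 0.00319), and in KO it differed by -2.20. These 3 calls stood with the set as a term and whichever WT library was left out. Ptpn6, a phosphatase of blood cells, rose from 26.2, 27.3 and 19.7 to 80.4, 74.8, 101 and 61.2 FPKM (1.65, adjusted p = 0.00319), and it passed with the set as a term and whichever WT library was left out. The part in it of the macrophage marker sums given above was not tested.

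WT on WD replicate 2 stood apart in acute-phase genes, none of which passed among the 25 tested. Saa3, a serum amyloid, measured 39.4, 26.7 and 37.7 FPKM on CD and 82.7, 798, 67.1 and 49.9 on WD. Lcn2, a siderophore-binding protein of the acute phase, measured 81.1, 7.63 and 25.2 FPKM on CD and 53.9, 842, 242 and 42.9 on WD. The same replicate had the lowest levels among the WD libraries of Cyp3a11 (28.6 FPKM), Gsta2 (2.40), Tat (4.03) and Srebf1 (4.22, against 18.2, 54.0 and 64.9 in the other 3).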
